A study of Mus musculus with 10 samples.

Results

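The 9 homeobox genes Lhx2, Otx1, Otx2, Pax6, Emx2, Six3, Dlx1, Dlx2 and Nkx2-1 encode transcription factors that pattern the embryonic forebrain, and their transcripts were followed over 10 mouse expression arrays. They were taken by gene symbol and make up 9 of the 18193 genes with a probe set of their own on the array. The array carries 15 probe sets for them: 5 for Pax6, 3 for Six3 and 1 for each of the other 7 genes. Each gene was read on its brightest probe set, and all values are log2 hybridisation signals from robust multi-array averaging (RMA), so a difference of 1 is a 2-fold change. The 3 arrays labelled iPS-derived NSC are described as neural stem cells (NSC) differentiated from induced pluripotent stem (iPS) cells. The 3 arrays labelled iPS are described as iPS cells made from brain NSC with Oct4 alone, delivered by a pMX retroviral vector. These cells were picked as Oct4-GFP-positive colonies and grown on irradiated mouse embryonic fibroblasts (MEF) with LIF. The 4 brain NSC arrays are described as the starting cells from adult brain. The background is the same in all 3 groups: OG2 mice carrying an Oct4-eGFP transgene on Rosa26 neo/lacZ, crossed with ICR females. The labels give neither the number of animals nor whether arrays stem from separate cultures or clones, so p-values measure only the spread between these arrays, which may be technical.

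The marker genes went against the labels of 2 groups, so their names below are only what the labels call them. Pou5f1 (Oct4), the pluripotency factor used for reprogramming, averaged 13.29 ± 0.25 on the arrays labelled iPS-derived NSC (SD, n = 3), 4.66 ± 0.15 on those labelled iPS (SD, n = 3) and 4.55 ± 0.05 in brain NSC (SD, n = 4). Fabp7, a lipid carrier known from neural progenitors, averaged 4.43 ± 0.21 on the arrays labelled iPS-derived NSC, 14.17 ± 0.02 on those labelled iPS and 14.45 ± 0.10 for brain NSC. The pluripotency marker list (9 genes measured) had array means of 11.48 to 11.64 on the arrays labelled iPS-derived NSC, 5.14 to 5.20 on those labelled iPS and 5.20 to 5.26 in brain NSC. The neural stem cell list (9 genes) had array means of 6.68 to 6.78 on the arrays labelled iPS-derived NSC, 11.00 to 11.14 on those labelled iPS and 10.87 to 11.26 for brain NSC. The arrays labelled iPS-derived NSC thus carried the pluripotency markers, and those labelled iPS carried the neural ones. Array medians lay between 5.65 and 5.72 and lower quartiles between 4.22 and 4.41. Replicate 4 of brain NSC correlated least with its group (mean Pearson r = 0.9913, against 0.9945 to 0.9980 on the other 9 arrays).

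Homeobox factors bind DNA through a homeodomain, many of them at short AT-rich sites with a TAAT core, and the combination expressed in a progenitor gives it a regional identity. In the developing forebrain, Otx and Six3 factors act early in the anterior neural plate. Lhx2, Emx2 and Pax6 then divide the dorsal telencephalon into the cortical primordium and its areas, while Nkx2-1 and the Dlx factors specify the ventral telencephalon, from which the striatum, pallidum and cortical interneurons arise. Several of them stay on in stem cells of the adult brain, where Pax6 and the Dlx factors are known from olfactory bulb neurogenesis, and Otx2 is also expressed before the nervous system forms, in the epiblast.

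The stretches just upstream of Otx2, Lhx2, Pax6 and Emx2 are shown because Otx2 differed in the opposite direction to Lhx2, Pax6 and Emx2. The sequences are those of RefSeq on GRCm38.p6, written 5′ to 3′ on the strand of the gene, and end next to the annotated start of the gene. The last 10 bases of the Lhx2 window lie inside the annotated gene and are not printed, which leaves 240. They lie at chr14:48667645-48667894 on the minus strand for Otx2, and on the plus strand at chr2:38339031-38339270 for Lhx2, chr2:105668646-105668895 for Pax6 and chr19:59458440-59458689 for Emx2. Capitals mark a TAATTA homeodomain palindrome and a TATAAA box in Otx2, and a CCAAT box in Pax6 and in Emx2.
Otx2: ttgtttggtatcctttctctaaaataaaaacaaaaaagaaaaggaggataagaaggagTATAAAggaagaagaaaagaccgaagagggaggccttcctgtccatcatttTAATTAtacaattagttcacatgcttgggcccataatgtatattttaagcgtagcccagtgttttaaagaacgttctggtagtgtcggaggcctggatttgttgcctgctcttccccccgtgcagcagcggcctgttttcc
Lhx2: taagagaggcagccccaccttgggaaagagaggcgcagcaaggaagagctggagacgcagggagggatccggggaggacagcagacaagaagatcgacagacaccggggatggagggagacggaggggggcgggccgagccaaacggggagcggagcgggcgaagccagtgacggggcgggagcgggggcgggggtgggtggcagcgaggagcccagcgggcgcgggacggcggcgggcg
Pax6: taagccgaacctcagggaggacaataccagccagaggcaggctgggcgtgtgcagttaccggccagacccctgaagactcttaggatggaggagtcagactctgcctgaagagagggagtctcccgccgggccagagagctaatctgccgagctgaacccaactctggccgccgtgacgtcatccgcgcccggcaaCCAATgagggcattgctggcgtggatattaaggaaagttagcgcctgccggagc
Emx2: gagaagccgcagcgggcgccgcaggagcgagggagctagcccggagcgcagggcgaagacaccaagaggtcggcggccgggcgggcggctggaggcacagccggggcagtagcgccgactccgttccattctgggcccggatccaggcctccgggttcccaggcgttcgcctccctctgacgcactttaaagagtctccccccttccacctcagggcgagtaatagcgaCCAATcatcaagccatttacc

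An entry was matched for 8 of the 9 genes, and the 250 bases before its start are its window. The windows of Six3 (chr17:85620584-85620833) and Dlx1 (chr2:71529195-71529444) lie inside the annotated genes, so they are not upstream of the whole gene. Both strands of each window were searched for 5 motifs, of which the first 2 share their TAAT start and can overlap: TAATCC (the bicoid-class site that Otx proteins bind), TAATTA (the homeodomain palindrome), TATAAA (the TATA box), ATGCAAAT (the octamer) and CCAAT (known as the CAAT box). The palindrome began 141 bases before the Otx2 start, and the TATA box 192 bases before it. Over the upstream stretches of 27018 genes, TAATCC was present in 6.37%, TAATTA in 4.91%, TATAAA in 13.0%, ATGCAAAT in 1.62% and CCAAT in 34.5%. The palindrome and the TATA box were each found in Otx2 alone among the 8, and TAATCC and ATGCAAAT in none of them. CCAAT lay 54 bases before the start in Pax6 and 21 bases before it in Emx2. It also occurred in the windows of Six3 (3 matches, inside the annotated gene) and Dlx2 (1 match). The Otx2 stretch had the lowest GC content of the 8 at 42.0%, with an observed-to-expected CpG ratio of 0.55. Lhx2 had 72.8% GC with a ratio of 0.895, Emx2 67.2% with 0.85 and Pax6 60.8% with 0.652, against medians of 52.0% and 0.379 over all genes. A match here is a description of letters, and no binding was measured.

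Lhx2, a LIM-homeodomain factor that specifies cortical identity and the eye field, was lower on the arrays labelled iPS-derived NSC than in either other group. Its gene lies on chromosome 2 at 38339271 to 38369737 (GRCm38.p6). Its signal was 3.48, 3.25 and 3.10 on the arrays labelled iPS-derived NSC, 8.49, 8.43 and 8.56 on those labelled iPS and 6.98, 6.97, 7.07 and 7.76 in brain NSC. The 3 groups did not overlap, and the highest brain NSC array stood apart from the other 3. Lhx2 fell by 5.22 ± 0.18 on the arrays labelled iPS-derived NSC relative to those labelled iPS (SE, adjusted p = 1.48e-11) and fell by 3.92 ± 0.17 relative to brain NSC (adjusted p = 1.18e-10). A difference was called where limma's p, adjusted over all genes, was under 0.05 and the change at least 2-fold. The low arrays here are those that carried the pluripotency markers. Lhx2 lay below their lower quartiles of 4.37 to 4.41 and Pax6, Emx2 and Dlx1 near them, and without detection calls none of the 4 was shown to be above background there, so their falls are given as differences in signal and not as folds of RNA. Lhx2 was higher by 1.30 ± 0.17 on the arrays labelled iPS than in brain NSC (2.46-fold, adjusted p = 0.000207), and by 1.49 without replicate 4 of brain NSC. In RNA from a bulk culture, fewer cells of a type and less RNA per cell cannot be told apart.

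Pax6, a paired-box and homeodomain factor of dorsal progenitors and of the eye, was low on the same arrays. Its gene lies on chromosome 2 at 105668896 to 105698410. Its brightest probe set gave 4.47, 3.98 and 4.51 on the arrays labelled iPS-derived NSC, 8.58, 8.56 and 8.78 on those labelled iPS and 8.56, 8.54, 8.41 and 8.49 in brain NSC. The arrays labelled iPS-derived NSC lay below every other array, and the other groups overlapped. Pax6 fell by 4.32 ± 0.13 on the arrays labelled iPS-derived NSC relative to those labelled iPS (adjusted p = 4.2e-12) and fell by 4.18 ± 0.12 relative to brain NSC (adjusted p = 2.52e-12). Between the arrays labelled iPS and brain NSC the difference was 0.14 ± 0.12 (adjusted p = 0.497).

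The 5 Pax6 probe sets differed from each other in size of response, and the exon or UTR that each of them targets was not determined. The second brightest, 1452526_a_at, averaged 4.31 ± 0.23 on the arrays labelled iPS-derived NSC, 7.10 ± 0.04 on those labelled iPS and 7.42 ± 0.13 in brain NSC. It fell by 2.78 ± 0.12 against the labelled iPS arrays and fell by 3.10 ± 0.11 against brain NSC (adjusted p = 1.92e-10 and 2.58e-11 over all 45037 probe sets). Probe set 1425960_s_at differed by -0.77 ± 0.14 and -1.22 ± 0.14 in the same comparisons, the second of them past 2-fold. Probe sets 1437816_at and 1456342_at lay between -0.07 and 0.17 in both, and were thus about level in the 3 groups. Between the arrays labelled iPS and brain NSC the other 4 probe sets all had a negative difference, from -0.45 ± 0.14 on 1425960_s_at (adjusted p = 0.0343) to -0.02, and the brightest one alone a positive difference.

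**Figure D1:**
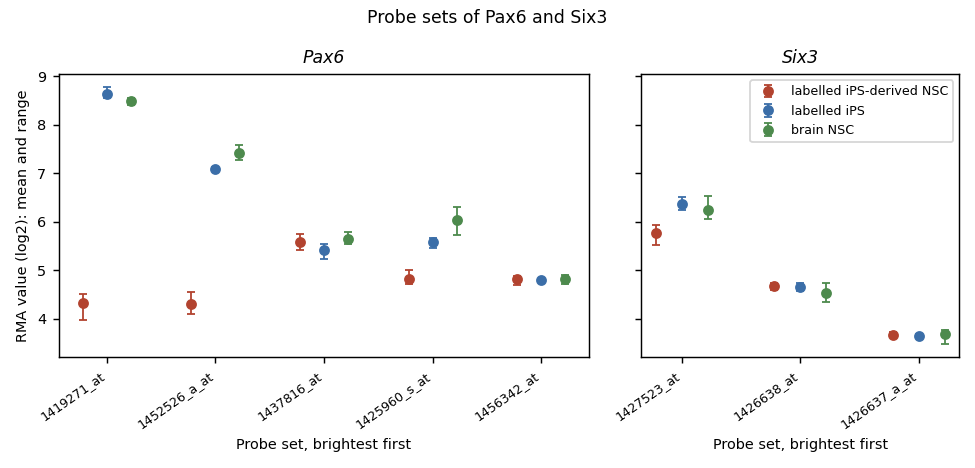
RMA signal (log2, vertical axis) of the 5 probe sets of Pax6 and the 3 probe sets of Six3, each ordered from brightest to dimmest along the horizontal axis; symbols are group means and bars run from the lowest to the highest array of the arrays labelled iPS-derived NSC (3), labelled iPS (3) and brain NSC (4). The brightest 2 Pax6 probe sets and, by less, 1425960_s_at separate the arrays labelled iPS-derived NSC from the rest. The dimmer Six3 probe sets are level in all groups.

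Emx2, a homeodomain factor that sets posterior and medial cortical areas and acts in adult neural stem cells, maps to 59458690 to 59465357 on chromosome 19. Its signal was 3.98, 4.49 and 4.29 on the arrays labelled iPS-derived NSC, 7.15, 7.20 and 7.06 on those labelled iPS and 7.01, 6.83, 6.82 and 7.08 in brain NSC. The arrays labelled iPS-derived NSC were the low ones without overlap, and the other groups overlapped. Emx2 fell by 2.88 ± 0.13 relative to the arrays labelled iPS (adjusted p = 1.73e-10) and fell by 2.68 ± 0.12 relative to brain NSC (adjusted p = 1.54e-10). The arrays labelled iPS differed from brain NSC by 0.20 ± 0.12 (adjusted p = 0.287).

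Otx2, an orthodenticle-type factor required for the anterior neuroectoderm and known as an early factor of the epiblast, was the only member called higher on the arrays labelled iPS-derived NSC. Its gene lies on the minus strand of chromosome 14 at 48656781 to 48667644. Its signal was 8.99, 8.84 and 8.75 on the arrays labelled iPS-derived NSC, 6.04, 6.18 and 6.17 on those labelled iPS and 4.78, 5.44, 5.44 and 4.84 in brain NSC. The 3 groups did not overlap, and the brain NSC arrays fell into a lower and a higher pair. Otx2 rose by 2.73 ± 0.17 on the arrays labelled iPS-derived NSC relative to those labelled iPS (6.64-fold, adjusted p = 6.64e-09) and by 3.73 ± 0.16 relative to brain NSC (adjusted p = 1e-10). In brain NSC its signals lay under the array medians. Without detection calls they were not shown to be above background, so the second rise is not given as a fold of RNA. On the arrays labelled iPS it was higher than in brain NSC by 1.00 ± 0.16 (adjusted p = 0.00082), at the 2-fold limit of the call. The call was lost at 0.88 without replicate 1 of brain NSC, 0.91 without replicate 4, and 0.97 and 0.98 without replicate 2 or 3 of the arrays labelled iPS.

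Some marker lists of other cell types also had higher array means on the arrays labelled iPS-derived NSC, several of them with genes called in both directions. The primed epiblast list, 5 genes measured besides Otx2, had array means of 8.53 to 8.69 on the arrays labelled iPS-derived NSC, 6.15 to 6.29 on those labelled iPS and 5.89 to 6.10 in brain NSC. Against either other group 3 of its genes rose (Dnmt3b, Nodal and Lefty2), Pou3f1 fell and Fgf5 was not called. The feeder fibroblast list (8 genes) ranged from 5.51 to 6.48 on the arrays labelled iPS-derived NSC, against 4.66 to 4.77 on those labelled iPS and 4.61 to 4.68 in brain NSC, with 4 genes called higher against the arrays labelled iPS and 5 against brain NSC. The endothelium list (5 genes) had array means of 5.80 to 6.02 on the arrays labelled iPS-derived NSC, against 4.67 to 4.83 on those labelled iPS and 4.69 to 4.91 in brain NSC, with Pecam1 alone called higher. The neuron list (8 genes) had 6.34 to 6.42 on the arrays labelled iPS-derived NSC, 5.92 to 6.08 on those labelled iPS and 6.03 to 6.10 for brain NSC, with Tubb3 and Stmn2 called higher and Map2 lower against both. The oligodendrocyte lineage list (5 genes) had 6.51 to 6.59, against 6.14 to 6.22 on the arrays labelled iPS and 5.90 to 6.09 in brain NSC, with Pdgfra called higher against both and Cspg4 lower against the arrays labelled iPS. The part of any of these cell types in the Otx2 signal was not tested. Of the 640 chromosome 14 genes, 55 were called higher and 134 lower on the arrays labelled iPS-derived NSC relative to those labelled iPS, and 54 and 137 relative to brain NSC. Over all genes, 10.8% were called higher and 14.4% lower in the first of these comparisons, and 11.3% and 14.0% in the second.

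Otx1, the related factor of the posterior cortex and its deep layers, differed in the other direction, at a smaller size. It lies on chromosome 11 at 21994764 to 22001651. Its signal was 5.75, 6.02 and 6.09 on the arrays labelled iPS-derived NSC, 6.85, 6.51 and 6.82 on those labelled iPS and 6.78, 6.63, 6.78 and 7.21 in brain NSC. The arrays labelled iPS-derived NSC were below all others. The difference was -0.77 ± 0.15 against the arrays labelled iPS (adjusted p = 0.000581) and -0.90 ± 0.14 against brain NSC (adjusted p = 8.44e-05), both under 2-fold and therefore not called. The arrays labelled iPS and brain NSC overlapped, with a difference of -0.13 ± 0.14 (adjusted p = 0.607).

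**Figure D2:**
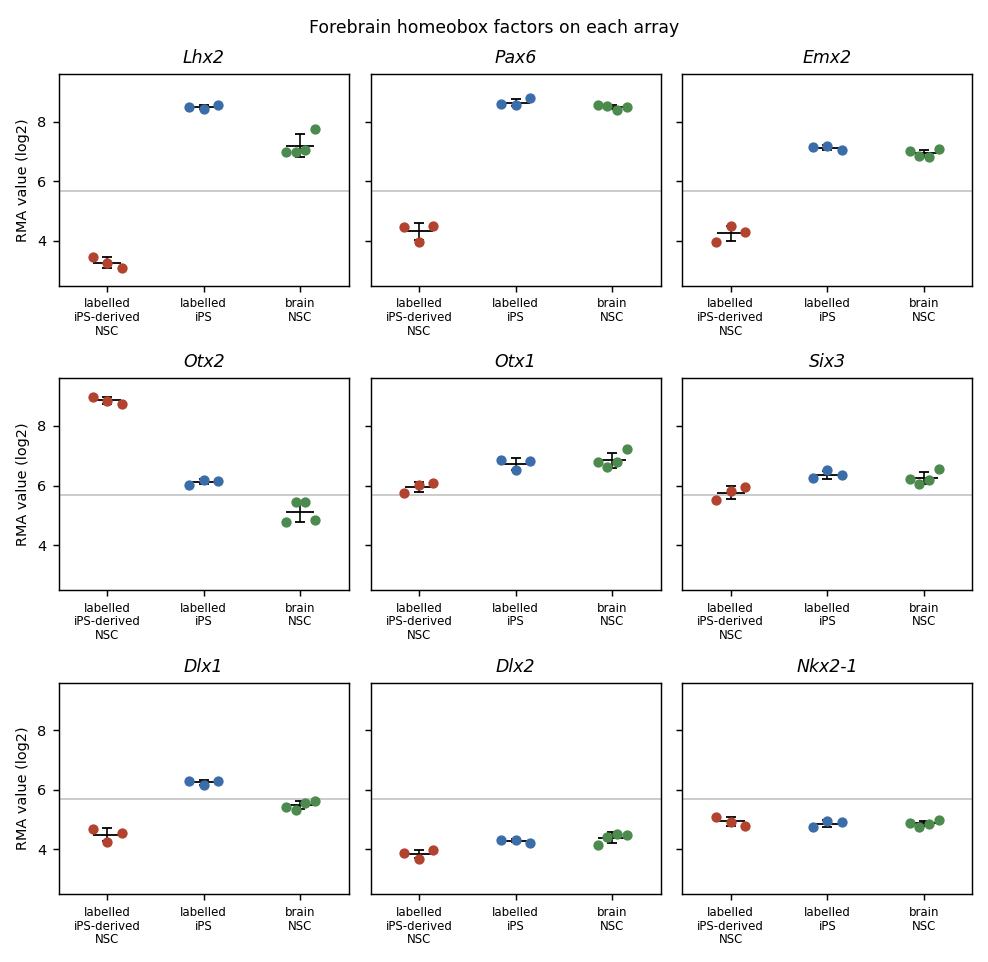
RMA signal (log2, vertical axis, the same in each panel) of the 9 factors on every array, with 1 panel per gene; points are arrays, short bars with whiskers group means and SD, and the grey line the median signal over all probe sets (5.65 to 5.72). Lhx2, Pax6 and Emx2 are low on the 3 arrays labelled iPS-derived NSC and Otx2 is high there, between 8.75 and 8.99.

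Six3, a factor of the most anterior neural plate that represses Wnt signalling there and acts in eye formation, differed by less than 2-fold in every comparison. Its gene lies on chromosome 17 at 85613608 to 85626191. Its brightest probe set gave 5.52, 5.83 and 5.94 on the arrays labelled iPS-derived NSC, 6.24, 6.51 and 6.36 on those labelled iPS and 6.22, 6.06, 6.20 and 6.54 in brain NSC. The arrays labelled iPS-derived NSC lay just under the rest without overlap. The differences were -0.60 ± 0.14 against the arrays labelled iPS (adjusted p = 0.00192) and -0.49 ± 0.13 against brain NSC (adjusted p = 0.00488), neither of them called. The other 2 Six3 probe sets gave 0.02 and 0.02 in the first of these comparisons and 0.13 and -0.01 in the second, so the small difference was seen on the brightest probe set alone.

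Dlx1, a distal-less factor of ventral progenitors and of the interneurons they form, was the only one of the 3 ventral factors with a called difference. It lies on chromosome 2 at 71528113 to 71533981, next to Dlx2 at 71543408 to 71546754. Its signal was 4.67, 4.26 and 4.55 on the arrays labelled iPS-derived NSC, 6.29, 6.15 and 6.30 on those labelled iPS and 5.42, 5.32, 5.57 and 5.63 in brain NSC. The 3 groups did not overlap, and brain NSC lay between the other groups. Dlx1 fell by 1.75 ± 0.12 on the arrays labelled iPS-derived NSC relative to those labelled iPS (adjusted p = 2.09e-08). Relative to brain NSC the difference was -0.99 ± 0.11 (adjusted p = 3.65e-06), just under the limit, and it was called without replicate 1 (-1.08) or 3 (-1.02) of the arrays labelled iPS-derived NSC, or without replicate 1 (-1.01) or 2 (-1.04) of brain NSC, and also after quantile normalisation (-1.09) or median centring of the arrays (-1.02). The arrays labelled iPS were above brain NSC by 0.76 ± 0.11 (adjusted p = 0.000537), which is under 2-fold.

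Dlx2, which acts together with Dlx1 in the same ventral progenitors, gave 3.87, 3.69 and 3.97 on the arrays labelled iPS-derived NSC, 4.31, 4.32 and 4.23 on those labelled iPS and 4.13, 4.43, 4.53 and 4.47 in brain NSC. All 10 arrays were near or below the lower quartile of their signals. The differences of -0.44 ± 0.12 against the arrays labelled iPS (adjusted p = 0.00468) and -0.55 ± 0.11 against brain NSC (adjusted p = 0.000575) were not called, although the arrays labelled iPS-derived NSC lay below every other array. Between the arrays labelled iPS and brain NSC the difference was -0.11 ± 0.11 (adjusted p = 0.563), with overlap.

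Nkx2-1, the factor of the medial ganglionic eminence and hypothalamus that is also known from lung and thyroid, showed no called difference. Its gene lies on chromosome 12 at 56531935 to 56536908. Its signal was 5.10, 4.94 and 4.80 on the arrays labelled iPS-derived NSC, 4.74, 4.96 and 4.91 on those labelled iPS and 4.90, 4.76, 4.84 and 4.99 in brain NSC. All 3 groups overlapped, below the array medians. The differences were 0.08 ± 0.11 against the arrays labelled iPS (adjusted p = 0.554), 0.08 ± 0.10 against brain NSC (adjusted p = 0.531) and 0.00 ± 0.10 between the arrays labelled iPS and brain NSC (adjusted p = 0.996). The files hold no detection calls, so whether Dlx2 and Nkx2-1 were expressed at all was not determined.

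Counted together, 5 of the 9 factors were called between the arrays labelled iPS-derived NSC and those labelled iPS, against 25.3% of all genes. Of these 1 rose (Otx2) and 4 fell (Lhx2, Pax6, Emx2 and Dlx1), where 10.8% of all genes were called higher and 14.4% lower. Relative to brain NSC 4 of 9 were called, 1 higher (Otx2) and 3 lower (Lhx2, Pax6 and Emx2), against 25.4% of all genes, 11.3% higher and 14.0% lower. The groups did not overlap for 8 of the 9 in either comparison, as was the case for 69.5% of all genes in the first and 61.3% in the second. The median difference of the 9 was -0.77 in the first comparison and -0.90 in the second, where all genes had medians of 0.12 and 0.13. Both comparisons use the same 3 arrays labelled iPS-derived NSC, so their counts are not independent.

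The arrays labelled iPS and brain NSC, the groups that carried neural markers, were close for most of the 9. In that comparison 2 factors were called higher (Lhx2 and Otx2) and none lower, against 1.84% of all genes in either direction, 0.951% higher and 0.890% lower. The arrays did not overlap for 3 factors (Lhx2, Otx2 and Dlx1), as for 28.3% of all genes. The median difference was 0.14 over the 9 factors and 0.01 over all genes. Pax6, Emx2, Otx1, Six3, Dlx2 and Nkx2-1 differed by -0.13 to 0.20, within the overlap of their arrays.

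**Figure D3:**
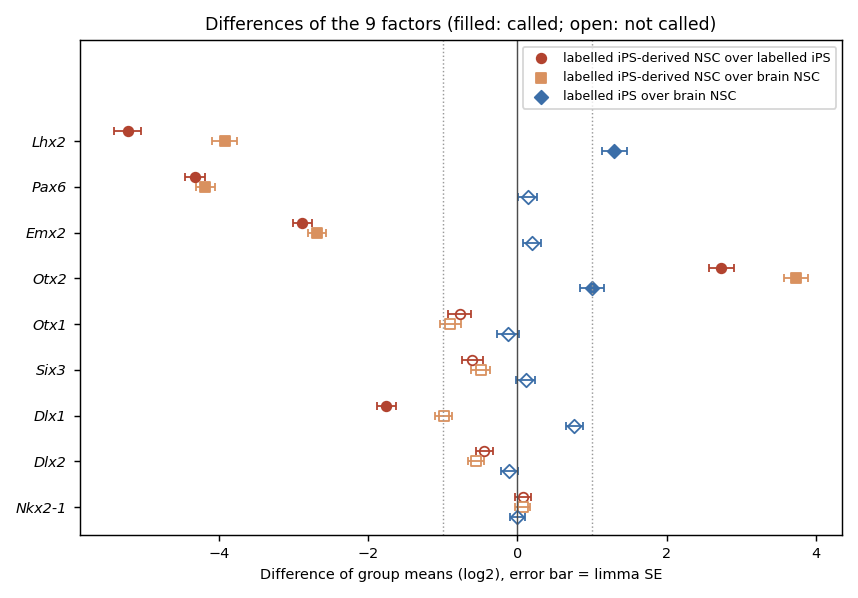
Differences of group means (log2, horizontal axis) for the 9 factors in the 3 comparisons; bars are limma standard errors, filled symbols are called and open ones are not, and dotted lines mark a 2-fold difference. Lhx2, Pax6 and Emx2 lie far to the left in both comparisons that involve the arrays labelled iPS-derived NSC, with Otx2 far to the right, at 2.73 and 3.73.

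Genes related to the 9 factors were read from 7 lists with 118 entries, 108 of which were measured. The shares over all genes, to set beside the list counts, were 10.8% called higher and 14.4% lower against the arrays labelled iPS. They were 11.3% and 14.0% against brain NSC, and 0.951% and 0.890% between the arrays labelled iPS and brain NSC. Paired values give the difference (with its SE) of the arrays labelled iPS-derived NSC from those labelled iPS first and from brain NSC second. In the pallium list, genes of the dorsal telencephalon other than the 9, 2 of 13 rose and 4 fell on the arrays labelled iPS-derived NSC relative to those labelled iPS, and 2 rose and 3 fell relative to brain NSC. The largest fall in both comparisons was in Nr2f1 (COUP-TFI, a nuclear receptor that patterns cortical areas), with differences of -6.23 ± 0.14 and -6.43 ± 0.13. Dmrta2, a doublesex-type factor of dorsal telencephalic progenitors, fell in both (-4.99 ± 0.16 and -3.83 ± 0.15). Zbtb20, a zinc finger factor of the hippocampus, fell in both as well (-4.21 ± 0.13 and -4.88 ± 0.12). The genes that rose, named after their values were seen, were Eomes (2.89 ± 0.13 and 2.85 ± 0.12), known from intermediate cortical progenitors and from the early embryo, and Lef1 (1.49 ± 0.11 and 1.42 ± 0.11), a Wnt effector. Dmrta2 was also the 1 gene of the list called higher on the arrays labelled iPS than in brain NSC, by 1.17 ± 0.15 (adjusted p = 0.00015), with 9.67, 9.70 and 9.80 on the arrays labelled iPS and 8.45, 8.43, 8.39 and 8.96 in brain NSC. The list's median was 0.09 against the arrays labelled iPS, 0.19 against brain NSC and -0.04 between these groups.

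The subpallium list held 13 measured genes besides Dlx1, Dlx2 and Nkx2-1. Olig2, a basic helix-loop-helix factor of ventral and oligodendrocyte progenitors, fell by 6.25 ± 0.19 on the arrays labelled iPS-derived NSC relative to those labelled iPS and fell by 5.93 ± 0.18 relative to brain NSC, and no other gene of the list was called in any comparison. Dlx5 and Dlx6, relatives known to act downstream of Dlx1 and Dlx2, differed by 0.09 ± 0.12 and 0.50 ± 0.11 against the arrays labelled iPS. Relative to brain NSC they differed by -0.08 ± 0.12 and 0.36 ± 0.10, and neither was called. Both lay under the array medians on every array, where a lack of calls says little. The list median was 0.38 and 0.32 in these 2 comparisons and -0.06 between the arrays labelled iPS and brain NSC.

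Among 11 genes of the anterior neural plate, eye field and hypothalamus, 2 rose and 2 fell in each comparison that involves the arrays labelled iPS-derived NSC, and none was called between the other groups. Tcf7l2, a Wnt effector known from the thalamus, fell (-3.81 ± 0.18 and -3.55 ± 0.17), though its 4 probe sets ranged up to -0.36 and -0.33. Nr2e1 (Tlx), a nuclear receptor that maintains adult neural stem cells, fell (-3.54 ± 0.17 and -3.72 ± 0.16), with -1.24 and -1.42 on its other probe set. Hesx1, a repressor of the anterior neural plate named after its values were seen, rose by 1.42 ± 0.13 and 1.44 ± 0.12. The other that rose was Mitf against the arrays labelled iPS (1.39 ± 0.16), a factor of the pigment epithelium, and Tcf7l1 against brain NSC (1.24 ± 0.14), a Wnt repressor. The midbrain and hindbrain list had 1 gene of 17 higher and 6 lower against the arrays labelled iPS, and 1 higher and 3 lower against brain NSC. Gbx2, which opposes Otx2 at the midbrain-hindbrain boundary and is also expressed in mouse pluripotent cells, rose by 2.57 ± 0.19 and 3.13 ± 0.18, in the same direction as Otx2. Irx3, an Iroquois homeobox factor, fell (-3.10 ± 0.16 and -2.53 ± 0.15), as did En2, an engrailed factor of the midbrain named after its values were seen (-1.56 ± 0.14 and -1.36 ± 0.13). None of the list was called between the arrays labelled iPS and brain NSC. The list medians in the same comparisons were 0.18 and 0.07 for the anterior genes and 0.15 and 0.20 for the midbrain and hindbrain genes, beside 0.12 and 0.13 over all genes, and between the arrays labelled iPS and brain NSC they were 0.02 and 0.21.

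In a list of further homeobox relatives of the 9, 1 of 17 was called higher and 1 lower against the arrays labelled iPS (10.8% and 14.4% of all genes). Against brain NSC 1 was higher and none lower (11.3% and 14.0% of all genes), and none was called between the other groups. The list medians were 0.23, 0.14 and 0.01. Of the paralogues given next, Emx1 was counted in the pallium list and Six6 with the anterior genes. Emx1, the paralogue of Emx2, averaged 6.47 on the arrays labelled iPS-derived NSC, 6.37 on those labelled iPS and 6.46 in brain NSC, and differed by 0.10 ± 0.10 and 0.01 ± 0.09. Lhx9, the paralogue of Lhx2, differed by -0.28 ± 0.12 and 0.08 ± 0.11, and Six6, the paralogue of Six3, by -0.07 ± 0.14 and -0.05 ± 0.13. Six4 rose by 1.26 ± 0.10 and 1.27 ± 0.09 on its brightest probe set, and all 4 of its probe sets lay between 1.26 and 1.59. Gsc (goosecoid), an Otx-like factor of the early organiser, fell by 1.34 ± 0.20 against the arrays labelled iPS and differed by -0.85 ± 0.19 against brain NSC, which was not called. Emx1, Lhx9 and Six6 were not called in any comparison. Six6 lay under the lower quartile of every array, where a lack of calls says little.

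Cofactors of the 9, proteins that bind DNA beside homeodomain factors or link them to repressors and activators, had the lowest median of the 7 lists in both comparisons with the arrays labelled iPS-derived NSC. Of 15 measured, 7 fell and none rose on the arrays labelled iPS-derived NSC relative to those labelled iPS, with a list median of -0.94, and 6 fell and none rose relative to brain NSC, with a median of -0.62. Pbx3, a homeodomain partner of Hox and Meis proteins, fell (-3.21 ± 0.14 and -3.56 ± 0.13). Ssbp2, which joins LIM-homeodomain complexes such as those of Lhx2, fell (-2.38 ± 0.09 and -2.70 ± 0.09) on its brightest probe set, while its 4 probe sets ranged up to -0.31 and -1.16. Among the others that fell, named after their values were seen, Meis1 (-2.12 ± 0.10 and -2.52 ± 0.10) and Meis2 (-2.10 ± 0.18 and -2.70 ± 0.17) are homeodomain partners of Pbx proteins. Lmo1 (-2.11 ± 0.10 and -1.35 ± 0.09) and Lmo3 (-1.90 ± 0.20 and -2.47 ± 0.19), LIM-only proteins that bind the same adaptor as Lhx2, fell too. Tle2, a Groucho corepressor of the kind that Six3 recruits, fell by 2.46 ± 0.21 against the arrays labelled iPS, differed by -0.62 ± 0.19 from brain NSC and was higher by 1.84 ± 0.19 on the arrays labelled iPS than in brain NSC (adjusted p = 4.17e-05), where the list median was -0.04.

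**Figure D4:**
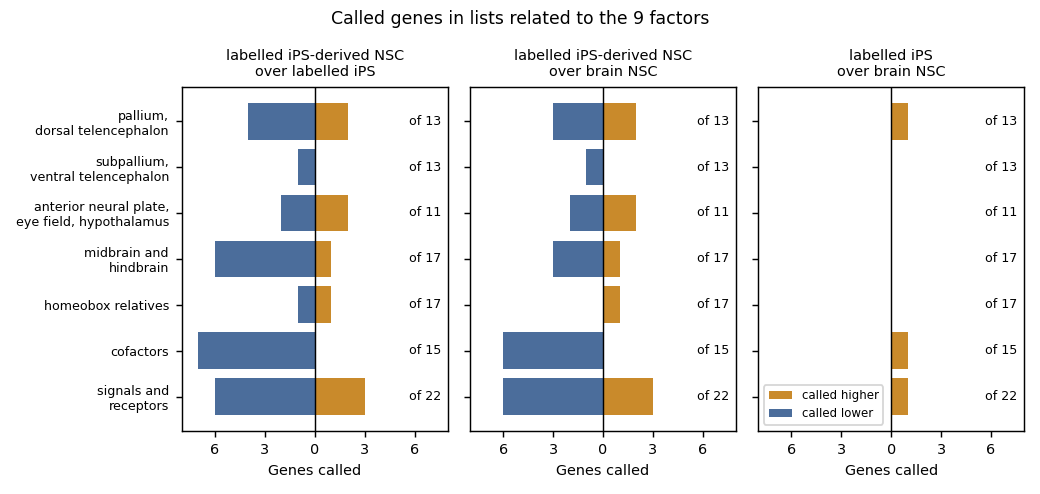
Numbers of genes called higher (orange, to the right of 0) and lower (blue, to the left) in 7 lists related to the 9 factors, with 1 panel per comparison; the number at the right of each row is the count of list genes measured, without the 9 factors. The cofactor list has 7 and 6 genes lower and none higher in the 2 comparisons that include the arrays labelled iPS-derived NSC, while each list has at most 1 call between the arrays labelled iPS and brain NSC.

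Of 22 secreted signals and receptors that pattern the forebrain, 3 rose and 6 fell on the arrays labelled iPS-derived NSC in both comparisons. Nodal, the TGF-beta ligand of the early embryo that acts with Otx2 there, rose by 5.14 ± 0.14 relative to the arrays labelled iPS and by 5.21 ± 0.13 relative to brain NSC, and Dkk1, a secreted Wnt inhibitor, rose by 3.96 ± 0.12 and 3.81 ± 0.12, with 1.69 and 1.64 on its other probe set. The list median was 0.21 and 0.25, and 0.08 between the arrays labelled iPS and brain NSC. Bmp4, Smo and Ptch1 were named after their values were seen, and agreement between probe sets was not examined for them. Bmp4 rose (2.94 ± 0.13 and 3.02 ± 0.12). Smo and Ptch1, the transducer and the receptor of sonic hedgehog signalling, fell (-2.81 ± 0.23 and -1.98 ± 0.21 for Smo, -1.97 ± 0.10 and -2.02 ± 0.09 for Ptch1). Wnt7a, a Wnt ligand of neural progenitors, fell (-4.58 ± 0.17 and -3.78 ± 0.16) on its brightest probe set, whereas its 3 probe sets ranged up to 0.17 and 0.34. Fgfr1, a fibroblast growth factor receptor of the anterior telencephalon, fell (-2.14 ± 0.17 and -1.07 ± 0.16), and the second of these calls was lost without replicate 2 of the arrays labelled iPS-derived NSC (-0.96) or replicate 4 of brain NSC (-0.90), on the mean of its probe sets (-0.94), after quantile normalisation (-0.94) and with a replicate block (-0.90). It was also the 1 signal gene higher on the arrays labelled iPS than in brain NSC, by 1.07 ± 0.16 (adjusted p = 0.000617), and that call was lost without replicate 3 of brain NSC (0.998), on the mean of its probe sets (0.77) and without probe sets that can cross-hybridise (0.95). Fgfr1 lies on chromosome 8, where 37 of 932 genes were called higher and 1 lower in that comparison, with a median of 0.18. Over all genes, 0.951% were called higher and 0.890% lower in it, with a median of 0.01.

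The genes whose profile over the 10 arrays was most like that of a factor were found by the root mean square distance between log2 values after each gene was set to its own mean. The 10 points share arrays, normalisation and group structure, so the distances are descriptions. For Lhx2 the closest were Dmrta2 (distance 0.19, Pearson r = 0.997), Fzd9, a Wnt receptor (0.24, r = 0.994), and Wnt7a (0.28, r = 0.996). All of them, like Lhx2, had their highest brain NSC signal on replicate 4. That array entered the distances by which they were chosen, so the shared peak follows in part from the choice. For Otx2 the closest were Tcea3, a transcription elongation factor (0.27, r = 0.992), Pcolce, an enhancer of procollagen processing (0.27, r = 0.987), and Col4a1, a basement membrane collagen (0.28, r = 0.985). For Pax6 they were Cap2 (0.11, r = 0.999), the galectin Lgals1 (0.16, r = 0.997) and the interferon-induced Ifit2 (0.16, r = 0.997). For Emx2 they were Nbdy (0.10, r = 0.997), Klf3 (0.11, r = 0.997) and Pip4p2 (0.13, r = 0.995), and for Dlx1 Dok7 (0.13, r = 0.986), Pomk (0.14, r = 0.993) and Gstp1 (0.14, r = 0.980). The probe sets of Klf3, Dok7 and Pomk disagreed, ranging up to 0.77, 0.02 and 0.23 between the arrays labelled iPS-derived NSC and those labelled iPS, against -2.78, -1.54 and -2.03 on the brightest ones; those of Pomk reached down to -2.40.

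**Figure D5:**
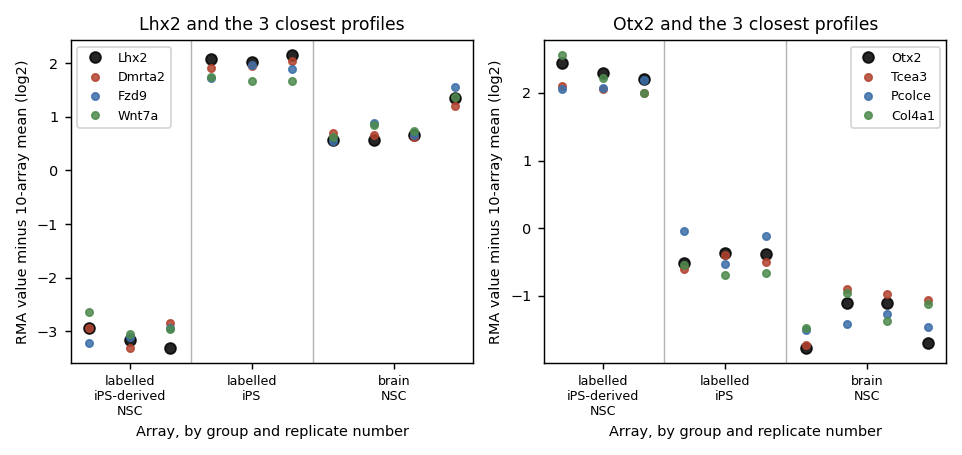
RMA signal minus the gene's mean over the 10 arrays (log2, vertical axis) for Lhx2 and Otx2 (black) with their 3 closest profiles (coloured), in array order by group along the horizontal axis. For Lhx2 all 4 genes have their highest brain NSC point on replicate 4, and for Otx2 the arrays labelled iPS-derived NSC are the highest for all 4 genes. The profiles were chosen for closeness on these same arrays.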

How the data were processed

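Total RNA of the 10 samples was hybridised to Affymetrix Mouse430_2 arrays. The deposited values are log2 signals made by the authors with RMA, per the submitters' processing notes; no version of RMA is stated there. The table has 45101 probe sets. After leaving out 64 control probe sets, 34945 had 1 gene symbol, 932 several and 9160 none in the platform annotation. The brightest probe set over all arrays stood for each of 18193 genes. limma 3.58.1 (R 4.3.3; lmFit and eBayes, 3 groups, 7 residual and 5.95 prior degrees of freedom) tested them, with Benjamini-Hochberg adjustment over all genes. A call needed an adjusted p under 0.05 and a difference of at least 1 (2-fold). Tests were two-sided. The script was checked on simulated data. The members, the lists and the rule for named genes (the 9 members, the 2 called genes with the largest difference in each list and comparison, the members' paralogues, the label check genes, and the 3 profiles closest to each called member) were chosen with earlier results of these data known. The number of arrays limits the precision. Alternatives covered the choice of probe set, normalisation, thresholds, a filter on dim genes, a replicate block and leaving out each array. Python 3.11.15 (pandas 2.3.3, numpy 2.4.6, matplotlib 3.10.9) made the summaries.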

Additional observations from a re-analysis of the deposited data

Results flagged for a closer look

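In brain NSC, the only group of 4 arrays, 1 array can be set against the other 3 by Dixon's test. For Lhx2, replicate 4 gave 7.76, against 6.97 to 7.07 on the other 3 arrays. The same array was the high one for Dmrta2 (8.96, against 8.39 to 8.45), Irx3 (8.30, against 7.79 to 7.84) and Fgfr1 (10.30, against 9.58 to 9.66). This array also correlated least with its group. Dmrta2 is also the profile closest to Lhx2, found on these same arrays. For the dimmest Six3 probe set, 1426637_a_at, replicate 2 gave 3.49, against 3.74 to 3.77 on the others, at a signal under the lower quartile of each array. In all, 59 sets of 4 arrays were tested and 5 stood out, and chance alone sets apart about 1 in 20.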

How the results depend on the processing

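Of the members' differences, 257 of 270 kept direction and side of the call when 1 array was left out, and 189 of 207 under the other alternatives; Lhx2 and Emx2 kept theirs in all 54 each. Of the other genes named by the rule, 675 of 680 and 527 of 540 did so. These were counted only in comparisons where they were called, and many were chosen for large differences, which makes a change less likely. Genes named outside the rule were not counted. Of the list counts 416 of 420 and 303 of 336 stayed within 1.5 times. Pax6 between the arrays labelled iPS and brain NSC turned to -0.18 on the mean of its probe sets, and Dok7 against the arrays labelled iPS turned to 0.025 without probe sets that can cross-hybridise. Nkx2-1 changed sign around 0: between the arrays labelled iPS and brain NSC it was 0.022 after quantile normalisation, 0.019 after median centring, 0.039 with a replicate block and -0.046 to 0.062 without 1 array; the arrays labelled iPS-derived NSC gave -0.059 and -0.037 after quantile normalisation, -0.0013 to 0.15 without 1 array against the arrays labelled iPS and -0.0026 to 0.15 against brain NSC. Between the arrays labelled iPS and brain NSC, 335 genes were called, against 223 on means of probe sets, 3704 with no fold threshold, 537 with a replicate block and 296 to 537 without 1 array (537 without replicate 4 of brain NSC), and 2 members against 1 after quantile normalisation, 1 with the replicate block and 1 to 2 without 1 array; Otx2, at 0.98 and 0.91 in the first 2, was the call lost. With no fold threshold, 11123 genes (4598 with it) and 8 members (5) were called against the arrays labelled iPS, and 11415 genes (4618) and 8 members (4) against brain NSC. Over genes, the deviations of same-numbered arrays from their group means correlated by -0.21 to 0.13, and these arrays share only a number. The block leaves replicate 4 of brain NSC without weight. The filter at a mean of 5.68 leaves out Dlx1, Dlx2 and Nkx2-1. Other scalings moved the median of all genes by -0.05 to 0.02. The cause of these changes was not tested. Signals near the lower quartile, as for Dlx2, limit what a difference can show.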

Other observations

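Transcripts of the opposite strand or the next locus were measured for 4 of the factors; they were chosen after their values were seen, and none was called in any comparison. Otx2os1, which starts beyond the Otx2 promoter on chromosome 14, averaged 4.65 on the arrays labelled iPS-derived NSC, 4.28 on those labelled iPS and 4.22 in brain NSC. Its differences were 0.37 ± 0.12 (adjusted p = 0.0141) and 0.43 ± 0.11 (adjusted p = 0.00364) for the arrays labelled iPS-derived NSC, in the direction of Otx2. Emx2os, the antisense neighbour of Emx2 on chromosome 19, differed by -0.52 ± 0.14 against the arrays labelled iPS (adjusted p = 0.00441) and by -0.31 ± 0.13 against brain NSC (adjusted p = 0.0503), in the direction of Emx2. Dlx1as and Six3os1 lay between 0.00 and 0.11 in the same comparisons. All 4 transcripts lay under the array medians on every array, and without detection calls none was shown to be above background.

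Cell types in which the ventral, eye and hypothalamic factors are known were read from marker lists as well. None of 8 GABAergic interneuron precursor genes, 5 retina and pigment epithelium genes or 5 lung and thyroid epithelium genes was called by limma in any of the 3 comparisons. Over all genes, 25.3% were called between the arrays labelled iPS-derived NSC and those labelled iPS. The share was 25.4% relative to brain NSC and 1.84% between the arrays labelled iPS and brain NSC. An unadjusted p under 0.05, a looser limit than the call, was reached by 11774, 12021 and 5919 genes in the same order. The array means of the GABAergic list were 5.19 to 5.33 on the arrays labelled iPS-derived NSC, 4.97 to 5.11 on those labelled iPS and 5.00 to 5.16 in brain NSC. Over all arrays, those of the retina list ran from 4.52 to 4.79 and those of the lung and thyroid list from 4.70 to 5.10. All of these means lay under the array medians, where a lack of calls says little.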
